A study of Rattus norvegicus with 72 samples.

Results

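The genes described here are Nop58, Nop56, Npm1, Nip7 and Tsr1, which encode proteins that help to build ribosomes. They are 5 of 17299 features (genes, or probes without a single gene symbol) tested on rat liver arrays after acetaminophen, and each was read by 1 probe. All 5 met the requirement of a value in at least 2 rats of every group. The 5 genes were chosen by their treated-over-pool ratios on these same arrays, so their ratios are given as a description and no p is given for them. Where the text says which of the 5 passed the threshold used for all features, this too is a description that the choice of the genes partly fixes, and it supports nothing. Liver RNA was measured in 36 rats given acetaminophen, a pain reliever that injures the liver at high dose, in methyl cellulose by oral gavage. The 12 groups of 3 rats received 50, 150, 1500 or 2000 mg/kg and are labelled 6, 24 or 48 h. The unit is written out as mg/kg in the titles of 2 groups, and the other titles give mg. RNA from the left liver lobe of each rat was set against control RNA of the same dose and time on 2 two-colour arrays with the dyes exchanged. The protocol describes these controls as pools of RNA from vehicle-treated rats. The titles for 150 mg/kg name a mock control at 6 h, and sham and mock controls at 24 h. The labels say nothing of strain, sex or age.

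A value is the log2 ratio of 1 rat to its control, the mean of its 2 arrays, so that 1 stands for a doubling and 0 for the control level. Such a ratio carries no level, so the genes cannot be ranked by abundance and the liver label cannot be set against defining markers. The labels do not say which channel is divided by which. Red over green, the usual order of this software, was assumed, and every sign would turn if it were the opposite. The array design used 1 pool per group, so the spread between control rats is left out, and a difference between pools enters every comparison of doses or times. In bulk liver, fewer cells of a type and less RNA per cell cannot be told apart. Over all features the standard deviation of a rat's ratios lay between 0.16 and 0.738. The 2 arrays of a rat, turned to the same direction, correlated above 0 in all 6 of the 1500 and 2000 mg/kg rats at 24 h (r from 0.019 to 0.524 over probes) and at 48 h (0.482 to 0.718). They did so in 3 of 6 such rats at 6 h and in 6 of 18 rats at the lower doses, with r down to -0.431.

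Ribosomes are assembled in the nucleolus, where RNA polymerase I transcribes the ribosomal RNA precursor. Small nucleolar RNA-protein particles (snoRNPs) then modify the precursor, nucleases and helicases process it, and assembly factors fit ribosomal proteins onto it until the small (40S) and large (60S) subunits leave the nucleus. In liver the process is known to rise when hepatocytes prepare to divide, and the transcription factor Myc is a known activator of many of its genes. Nop58 and Nop56 are related core proteins of the box C/D snoRNPs, which guide the methylation of ribosomal RNA. Npm1 (nucleophosmin) is an abundant nucleolar chaperone. Nip7 is known from yeast as an assembly factor of the 60S subunit, and Tsr1 is known from yeast as a late assembly factor of the 40S subunit.

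The promoters of all 5 genes were found in the RefSeq promoter table (build GRCr8, 250 bases before to 50 after each annotated start). The last 120 bases before the start are shown because all 5 genes were above their controls at 24 and 48 h after the high doses. They lie at chr9:68614954-68615073 (plus strand) for Nop58, chr3:137930059-137930178 (plus) for Nop56, chr10:18255742-18255861 (minus) for Npm1, chr19:51872186-51872305 (plus) for Nip7 and chr10:60258670-60258789 (plus) for Tsr1. A further 30 bases are given for Tsr1, from 9 to 38 after the start (chr10:60258798-60258827, plus), because they hold the E-box letters. Each is written 5′ to 3′ on the strand of the gene, and capitals mark complete matches, on either strand, to the E-box CACGTG (the letters bound by Myc with its partner Max), the GC box GGGCGG, the ETS core CGGAAG or the TATA box TATAAA.
Nop58: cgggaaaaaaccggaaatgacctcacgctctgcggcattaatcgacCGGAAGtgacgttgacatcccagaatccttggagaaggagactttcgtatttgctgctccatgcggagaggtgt
Nop56: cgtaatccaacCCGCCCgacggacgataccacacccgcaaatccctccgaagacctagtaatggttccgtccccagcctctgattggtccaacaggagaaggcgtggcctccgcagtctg
Npm1: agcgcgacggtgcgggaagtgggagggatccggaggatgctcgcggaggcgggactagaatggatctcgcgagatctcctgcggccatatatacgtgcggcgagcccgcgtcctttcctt
Nip7: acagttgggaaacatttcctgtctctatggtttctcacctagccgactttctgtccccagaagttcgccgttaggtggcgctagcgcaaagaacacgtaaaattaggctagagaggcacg
Tsr1: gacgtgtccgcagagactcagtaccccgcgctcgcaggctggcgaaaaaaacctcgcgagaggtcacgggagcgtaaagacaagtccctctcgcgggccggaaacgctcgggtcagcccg
Tsr1 after the start: gtttactcggtgCACGTGggcagttagaat

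Over the whole 300-base windows, the E-box letters stood in 1 of the 5 promoters, that of Tsr1, from 21 to 26 bases after the start. They stood in 6.42% of all 33469 promoters of the table. The ETS core stood in 3 of 5 (Nop58, Nip7 and Tsr1) and in 16.6% of all promoters. The GC box stood in 3 of 5 (Nop58, Nop56 and Npm1) and in 33.1% of all. The TATA letters stood in Nop58 alone, from 246 to 241 bases before the start, and in 14.2% of all. The ETS core of Tsr1 spans the start and so lies outside the printed stretch. The motifs found do not overlap each other in these 5 windows, and a match is only a match of letters. Of 115 other genes of ribosome biogenesis that were measured, 103 had a promoter in the table, and 34 of these (33%) held the E-box, 62 (60.2%) the ETS core, 61 (59.2%) the GC box and 2 (1.94%) the TATA letters.

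At 24 h after 1500 and 2000 mg/kg, all 5 genes stood above the control in every rat with a value. The means ran from 2.31-fold for Nip7 at 1500 mg/kg to 5.76-fold for Nop58 at 2000 mg/kg. At 48 h after the same doses all 5 were still above the control in all 6 rats, with means from 1.96-fold to 2.71-fold. At 6 h the high doses gave smaller ratios, the largest for Tsr1 and Nip7. After 50 and 150 mg/kg most values lay near 0, except for Nip7 and Tsr1 above the control at 48 h and Npm1 above it after 50 mg/kg at 24 h. After 150 mg/kg Nip7 was below the control in every rat at 6 and 24 h, and Tsr1 in every rat at 24 h.

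**Figure D1:**
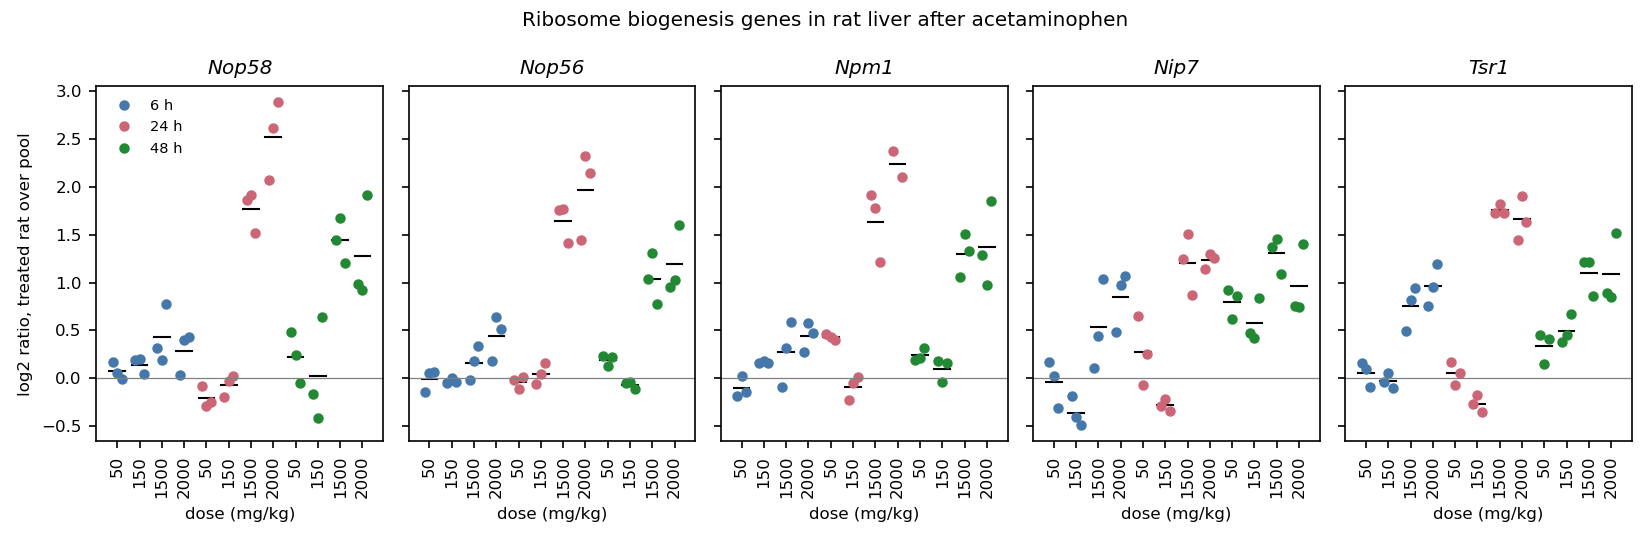
Log2 ratio of each treated rat over its control (vertical axis) for the 5 genes, by dose in mg/kg (horizontal axis) and time (colour); points are rats and black lines group means. All 24 h and 48 h values at 1500 and 2000 mg/kg lie above 0, and the highest single value is 2.88, for Nop58 at 2000 mg/kg and 24 h.

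Of the snoRNP core proteins, Nop58 had log2 ratios of 1.86, 1.92 and 1.51 in the rats given 1500 mg/kg at 24 h. The rats given 2000 mg/kg had 2.07, 2.62 and 2.88. The group means were 1.76 ± 0.22 (SD, n = 3) and 2.52 ± 0.41 (SD, n = 3), or 3.4-fold and 5.76-fold. In these averages of 2 arrays all 3 rats of the higher dose stood above all 3 of the lower one. On the arrays with the rat in Cy3 the doses overlapped, at 2.13, 2.17 and 1.55 against 2.02, 2.35 and 2.18. At 48 h the 1500 mg/kg rats had 1.44, 1.67 and 1.21, with a mean of 1.44 ± 0.23 (SD, n = 3). The 2000 mg/kg rats had 0.98, 0.93 and 1.91, with a mean of 1.27 ± 0.55 (SD, n = 3). The order of the doses seen at 24 h was thus not present at 48 h, where the 2 groups overlapped and 1 rat of the higher dose stood far above the other 2. At 6 h the values were 0.32, 0.19 and 0.77 after 1500 mg/kg, and 0.03, 0.40 and 0.43 after 2000 mg/kg. Those ranges overlap each other, and the lowest of them lies within the range of the low doses. The 18 rats at 50 and 150 mg/kg had group means from -0.20 to 0.23, and the 150 mg/kg group at 48 h was the most spread, with values of -0.16, -0.42 and 0.64.

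Nop56, the partner of Nop58 in the same particles, had 1.76, 1.77 and 1.41 at 24 h after 1500 mg/kg, a mean of 1.65 ± 0.20 (SD, n = 3) or 3.13-fold. After 2000 mg/kg it had 1.44, 2.32 and 2.14, a mean of 1.97 ± 0.46 (SD, n = 3) or 3.92-fold. Here the 2 doses overlapped, because 1 rat at 2000 mg/kg lay at the level of the lowest at 1500 mg/kg. At 48 h the means were 1.04 ± 0.26 (SD, n = 3) at 1500 mg/kg, from values of 1.04, 1.31 and 0.78. At 2000 mg/kg the values 0.96, 1.03 and 1.60 gave a mean of 1.2 ± 0.35 (SD, n = 3). Every one of these 12 values exceeded the highest Nop56 value of any other group, 0.64 in a rat given 2000 mg/kg at 6 h. The other 6 h values were 0.18 and 0.52 at that dose, and -0.02, 0.18 and 0.34 at 1500 mg/kg. The low-dose group means of Nop56 were the tightest of the 5 genes, from -0.07 to 0.19.

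Npm1, the nucleolar chaperone, had 1.92, 1.78 and 1.21 at 24 h after 1500 mg/kg, a mean of 1.64 ± 0.37 (SD, n = 3) or 3.11-fold. After 2000 mg/kg it had 2.38 and 2.11, a mean of 2.24 ± 0.19 (SD, n = 2) or 4.74-fold. The remaining rat of that group, rat 3105, is left out of the fit because only 1 of its 2 arrays holds a value, 1.54, which lies inside the range at 1500 mg/kg. At 48 h Npm1 had 1.06, 1.51 and 1.33 after 1500 mg/kg and 1.28, 0.98 and 1.85 after 2000 mg/kg, ranges that overlap. Their means were 1.3 ± 0.23 (SD, n = 3) and 1.37 ± 0.44 (SD, n = 3). The 50 mg/kg group at 24 h stood above its control in all 3 rats, at 0.47, 0.43 and 0.40, a range within that of the 2000 mg/kg group at 6 h (0.28, 0.58 and 0.47). Its neighbour at 150 mg/kg and 24 h had -0.23, -0.04 and 0.01, so that the lower of these 2 doses had the higher ratios. The rat gene table lists 20 pseudogenes of Npm1 and 16 of Nip7, and none by that naming for the other 3. Probe sequences were not used here, so whether those 2 probes also bind transcripts of the copies was not tested.

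Nip7, the 60S factor, differed most from the other 4. At 24 h it had 1.24, 1.5 and 0.87 after 1500 mg/kg and 1.14, 1.3 and 1.25 after 2000 mg/kg. The means were 1.21 ± 0.32 (SD, n = 3) and 1.23 ± 0.08 (SD, n = 3), or 2.31-fold and 2.35-fold, and the second group lies inside the range of the first. At 48 h it had 1.37, 1.45 and 1.09 after 1500 mg/kg, a mean of 1.31 ± 0.19 (SD, n = 3), its highest of the 12 groups. After 2000 mg/kg it had 0.75, 0.75 and 1.40, a mean of 0.97 ± 0.38 (SD, n = 3). Unlike the snoRNP genes it also stood above its control at 48 h after the low doses in all 6 rats. The 3 values were 0.92, 0.62 and 0.86 at 50 mg/kg, a mean of 0.80 ± 0.16 (SD, n = 3), and 0.48, 0.42 and 0.84 at 150 mg/kg, a mean of 0.58 ± 0.23 (SD, n = 3). The 50 mg/kg rats at 48 h therefore overlapped the 2000 mg/kg rats of that time. At 6 h it had 0.11, 0.44 and 1.04 after 1500 mg/kg and 0.48, 0.98 and 1.07 after 2000 mg/kg. The 150 mg/kg rats stood below their controls at 6 h (-0.19, -0.40 and -0.49) and at 24 h (-0.28, -0.21 and -0.34). The titles name the controls of these 2 groups in another way than those of the other groups, and the part of the control in these values was not tested.

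Tsr1, the 40S factor, had the smallest spread between rats of the 5 genes in the 1500 mg/kg group at 24 h, with values of 1.73, 1.82 and 1.73, a mean of 1.76 ± 0.06 (SD, n = 3) or 3.38-fold. After 2000 mg/kg it had 1.45, 1.90 and 1.64, a mean of 1.66 ± 0.23 (SD, n = 3) or 3.16-fold. The higher dose thus had the slightly lower mean, with the first group inside the range of the second. Tsr1 was the highest of the 5 genes at 6 h, with 0.49, 0.82 and 0.95 after 1500 mg/kg and 0.76, 0.95 and 1.2 after 2000 mg/kg. All 6 values lay above all 6 low-dose values of that time, of which the highest was 0.16. At 48 h it had 1.22, 1.21 and 0.86 after 1500 mg/kg and 0.89, 0.85 and 1.52 after 2000 mg/kg, with means of 1.10 ± 0.20 (SD, n = 3) and 1.09 ± 0.38 (SD, n = 3). These were close to the 6 h mean at 2000 mg/kg, 0.97 ± 0.22 (SD, n = 3). The low-dose rats at 48 h were again above their controls in 6 of 6, with means of 0.34 ± 0.17 (SD, n = 3) at 50 mg/kg and 0.50 ± 0.15 (SD, n = 3) at 150 mg/kg. At 150 mg/kg and 24 h all 3 lay below, at -0.27, -0.18 and -0.35.

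In the order of the 12 group means, the 4 high-dose groups of 24 and 48 h took the first 4 ranks for all 5 genes. For Nop58, Nop56 and Npm1 a gap followed, since no rat of the fourth group overlapped the fifth, and the gap was widest for Npm1, at 0.48. For Nop58 the 2000 mg/kg group of 24 h also stood clear of the second group, though not on the arrays with the rat in Cy3. For Npm1 it did so only with rat 3105 left out, since the 1 array of that rat reads 1.54. For Tsr1 both 24 h groups stood clear of the next one, by 0.23, but the fourth overlapped the fifth. For Nip7 every group overlapped its neighbour in the order. Among the lower ranks only the eighth and ninth for Npm1, by 0.003, and the last pair for Tsr1, by 0.08, did not overlap.

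Counted by the limma test over all 17299 features (Benjamini-Hochberg adjusted p below 0.05 and at least 1.5-fold, the meaning of called below), 5 of 5 were called higher in each high-dose group at 24 and 48 h. This count is fixed by the choice of the genes. The share of all features called higher was 7.14% at 1500 mg/kg and 10.3% at 2000 mg/kg at 24 h, and 13.3% and 12.8% at 48 h, with 2.75%, 4.43%, 5.42% and 9.17% called lower in the same 4 groups. At 6 h Tsr1 was called at 1500 mg/kg and Nip7 and Tsr1 at 2000 mg/kg, against 4.21% and 5.11% of all features called higher and 2.82% and 2.85% called lower. Of the low-dose groups only 50 mg/kg at 48 h held a called gene of the 5, Nip7, against 3.95% of all features called in either direction. The share called in either direction was 1.42% at 50 mg/kg and 0.0347% at 150 mg/kg at 6 h, 3.55% and 0.145% at 24 h, and 1.48% at 150 mg/kg at 48 h.

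Set against the mean of the 2 low doses, the mean of the 2 high doses at 24 h was higher by log2 2.28 ± 0.17 (SE of the model) for Nop58, 1.80 ± 0.12 for Nop56, 1.76 ± 0.13 for Npm1, 1.22 ± 0.15 for Nip7 and 1.82 ± 0.11 for Tsr1. At 48 h the differences were smaller, at 1.23 for Nop58, 1.06 for Nop56, 1.17 for Npm1 and 0.67 for Tsr1. Nip7 had the smallest, 0.45, because its low-dose rats were raised too. At 6 h the order was turned, with 0.89 for Nip7 and 0.85 for Tsr1 and between 0.25 and 0.33 for the other 3. In this contrast 2, 5 and 4 of the 5 were called higher at 6, 24 and 48 h, the 48 h exception being Nip7. Of all features 4.67%, 6.56% and 8.26% were called higher, and 3.46%, 3.37% and 4.09% lower.

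Between the 2 high doses, 2000 minus 1500 mg/kg at 24 h gave log2 0.76 ± 0.24 (SE) for Nop58 and 0.61 ± 0.20 for Npm1, the 2 of the 5 called there, against 2.5% of all features called higher and 2.68% lower. The Npm1 value rests on 2 rats at 2000 mg/kg, and with the 1 array of rat 3105 it was 0.38 and no longer called. With arrays scaled to equal spread the Nop58 means of the 2 doses at 24 h were lower and lay closer together. On the arrays with the rat in Cy3 alone the Nop58 values of the 2 doses overlapped. The differences for Nop56, Nip7 and Tsr1 were 0.32 ± 0.17, 0.03 ± 0.21 and -0.10 ± 0.15. At 6 h they ran from -0.14 for Nop58 to 0.31 for Nip7, and at 48 h from -0.34 for Nip7 to 0.15 for Nop56. None of the 5 was called at these 2 times, when 0.613% and 5.4% of all features were called in either direction. From 6 to 24 h the mean of the high doses was higher by 1.79 for Nop58, 1.5 for Nop56, 1.58 for Npm1, 0.85 for Tsr1 and 0.53 for Nip7, of which all but Nip7 were called (5.77% of all features higher, 4.37% lower). From 24 to 48 h Nop58 fell by 0.79, Nop56 fell by 0.69, Npm1 fell by 0.61 and Tsr1 fell by 0.62. These 4 were called lower, while the difference for Nip7 was -0.08. The Npm1 fall is close to the 1.5-fold minimum and leaves out the 1 array of rat 3105 at 24 h, which read 1.54. These falls pool the doses. At 1500 mg/kg the means went from 1.76 to 1.44 for Nop58, 1.65 to 1.04 for Nop56, 1.64 to 1.3 for Npm1 and 1.76 to 1.10 for Tsr1. At 2000 mg/kg they went from 2.52 to 1.27, 1.97 to 1.2, 2.24 to 1.37 and 1.66 to 1.09. Over all features 5.72% were called higher and 3.36% lower in that interval.

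In some high-dose groups 1 rat was the highest or the lowest for all of the genes. In the 2000 mg/kg group at 48 h, rat 3119 had the highest value of the 3 for 5 of 5 genes. Its mean over the 5 was 1.66, against 0.97 and 0.91 in rats 3117 and 3118. It also had the largest standard deviation over all features of the 36 rats, 0.738, where the other 2 had 0.502 and 0.504. In the 1500 mg/kg group at 6 h, rat 3032 was highest for 5 of 5, with a mean of 0.74 against 0.16 and 0.39, and its standard deviation over all features was 0.624 against 0.298 and 0.358. In the 2000 mg/kg group at 6 h, rat 3093 was lowest for 5 of 5, with a mean of 0.35 against 0.71 and 0.74, and at 24 h rat 3105 was lowest for the 4 genes it had. Other groups had no such rat, and in 2 low-dose groups rat 3125 (50 mg/kg, 6 h) and rat 3074 (150 mg/kg, 24 h) were each highest for 3 genes and lowest for the other 2. The part of an array-wide spread in these orders was not tested.

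Over the rats, the pairwise Pearson correlations of the 5 genes ran from 0.757 (Nop56 with Nip7, 36 rats) to 0.962 (Nop56 with Npm1, 35 rats). Within the 18 high-dose rats they ran from 0.735 to 0.967. After each group's mean was taken away they ran from 0.57 (Npm1 with Tsr1) to 0.819 (Nip7 with Tsr1). These are descriptions, since the genes of a rat share its arrays and a group shares its control, and the rats fall into clusters by dose.

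Each gene was also read in both dye orientations. At 24 and 48 h after the high doses, both arrays gave a ratio above 0 in 12 of 12 rats for Nop58, Nop56, Nip7 and Tsr1 and in 11 of 11 for Npm1. Over all rats the 2 orientations correlated at 0.906 for Nop58, 0.965 for Nop56, 0.967 for Npm1 and 0.968 for Tsr1, and at 0.698 for Nip7. The widest gap for Nip7 was 1.53, in rat 3106 (2000 mg/kg, 24 h), at 0.54 with the rat in Cy5 and 2.06 with the rat in Cy3. In the 3 rats of that group its mean was 0.75 in Cy5 and 1.71 in Cy3. At 6 h and the same dose the order was the other way, 1.26 in Cy5 and 0.43 in Cy3, so the size of the Nip7 ratios is the least certain of the 5. Nop58 in rat 3107 was 3.59 in Cy5 and 2.18 in Cy3, the widest gap for that gene.

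**Figure D2:**
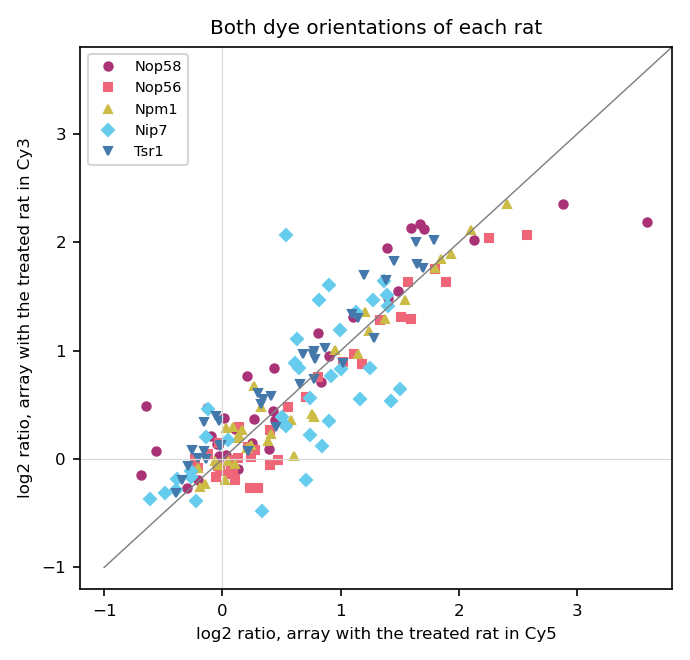
Log2 ratio of treated rat over control on the array with the rat in Cy5 (horizontal axis) and on the array with the rat in Cy3 (vertical axis), 1 point per rat and gene with values on both arrays; the grey line marks equality. Nip7 scatters most (r = 0.698), and the Nop58 point farthest right is rat 3107 at 3.59 and 2.18.

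The 115 other measured genes of ribosome biogenesis, from 6 lists by role, show what the 5 genes stand among. The lists were chosen with earlier results of these data known. At 24 h 50 of 115 (43.5%) were called higher and 1 lower at 1500 mg/kg, and 48 (41.7%) higher and 2 lower at 2000 mg/kg, by limma over all features. The medians of the list were 0.49 and 0.43, beside -0.03 and -0.04 over all features. At 48 h 39 were called higher and 2 lower at 1500 mg/kg (median 0.35), and 40 higher and 3 lower at 2000 mg/kg (median 0.38). After scaling of the arrays to equal spread the counts of 39 at 48 h and of 7 and 16 at 6 h, given next, were 18, 2 and 9. At 6 h 7 and 16 were called higher and 0 lower, with medians of 0.14 and 0.18, and the count of 7 was 2 without rat 3032 and 14 without rat 3030. The shares higher at 6 h were 6.09% and 13.9%, the first near the 4.21% and the second beside the 5.11% of all features. Over all features the shares higher were 7.14% and 10.3% at 24 h. At 48 h those of the list were 33.9% and 34.8%, beside 13.3% and 12.8% of all features. Of the 50 genes called higher at 1500 mg/kg and 24 h, 39 (78%) were among the 48 at 2000 mg/kg, of which they made up 81.2%. In all 4 high-dose groups of 24 and 48 h 21 genes were called higher, and 46 of 115 were called in none of the 12 groups.

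At the low doses 4 of the 115 were called higher at 50 mg/kg and 6 h, 4 higher and 1 lower at 50 mg/kg and 24 h, and 8 and 4 higher at 50 and 150 mg/kg and 48 h. The shares higher at 50 mg/kg were 3.48% at 6 h and 3.48% at 24 h, beside 1.36% and 2.09% of all features. At 48 h they were 6.96% and 3.48% at 50 and 150 mg/kg, beside 2.2% and 1.38%. None of the 115 was called by limma at 150 mg/kg at 6 or 24 h, where 5 of 115 had an unadjusted p below 0.05 each time. With all arrays scaled to equal spread 2 and 1 were called there. The count of 5 at 50 mg/kg and 24 h was 3 without rat 3137 and 9 without rat 3138, that of 4 at 50 mg/kg and 6 h was 2 without rat 3125, and that of 4 at 150 mg/kg and 48 h was 1 without rat 3059.

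**Figure D3:**
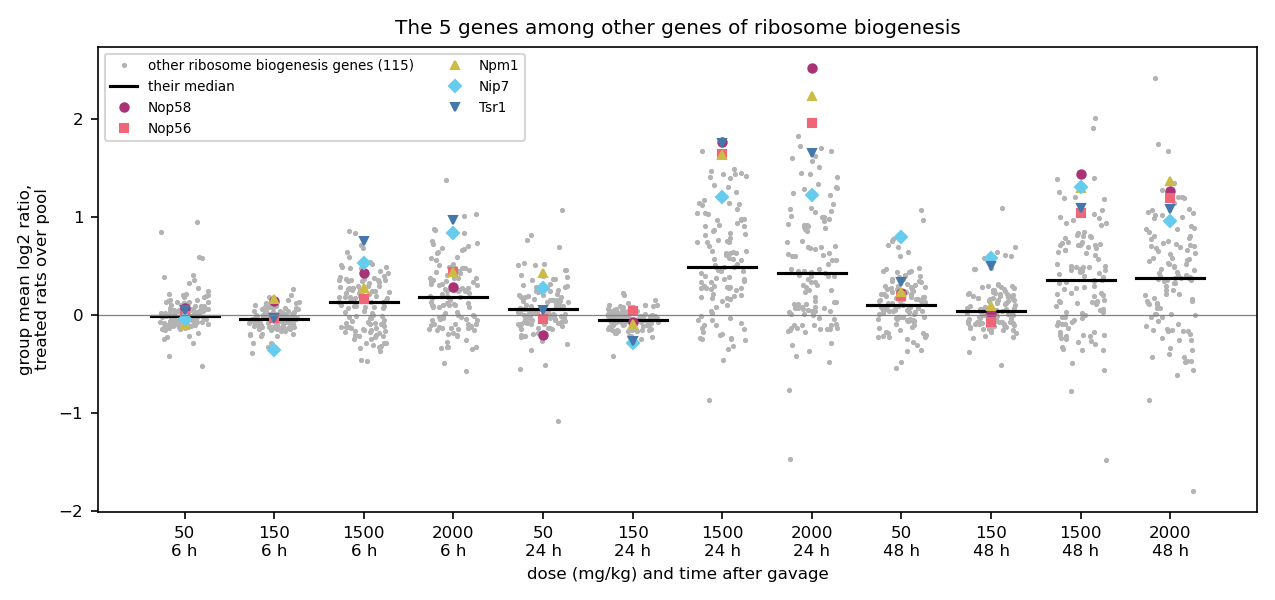
Group mean log2 ratio of treated rats over control (vertical axis) in the 12 groups of dose and time (horizontal axis), for the 115 other genes of ribosome biogenesis (grey points, black line their median) and for the 5 genes (coloured symbols). At 2000 mg/kg and 24 h Nop58, Nop56 and Npm1 lie above all 115, at 2.52, 1.97 and 2.24, where the median of the list is 0.43.

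The 5 genes lay near the top of this list in the groups that chose them. At 2000 mg/kg and 24 h 0 of the 115 had a higher mean than Nop58, Nop56 or Npm1, 4 had one higher than Tsr1, and 16 had one higher than Nip7. At 6 h the order differed, with 3 of 115 above Tsr1 and 5 above Nip7 at 2000 mg/kg, but 27 above Nop56, 27 above Npm1 and 42 above Nop58.

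Of 9 other snoRNP proteins and assembly factors, 1 and 3 were called higher at 24 h and 1 and 2 at 48 h, at 1500 and 2000 mg/kg. At 1500 mg/kg this share, 11.1% each time, was near the 7.14% of all features called higher at 24 h and below the 13.3% at 48 h. The 1 called at 1500 mg/kg and 24 h was Ruvbl1, a helicase-like ATPase that helps to assemble the particles. At 2000 mg/kg Dkc1, the pseudouridine synthase of the box H/ACA snoRNPs, and Pih1d1, an assembly cofactor, were called too. Znhit6, a box C/D assembly factor, moved the other way. It fell by 0.84 in high against low dose at 24 h (adjusted p = 5.99e-07 by limma), below its control in 5 of 6 high-dose rats. At 48 h it fell by 0.79 (adjusted p = 1.44e-06), below the control in 6 of 6. Against its control it was called lower only at 2000 mg/kg, with means of -0.762 at 24 h and -0.865 at 48 h. At 1500 mg/kg the means were -0.453 and -0.214, not called. The difference between the high doses at 48 h, -0.651, was called. The low-dose rats had a median of 0.22 at 24 h and 0.30 at 48 h.

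At 24 h 7.14% and 10.3% of all features were called higher at 1500 and 2000 mg/kg. Among RNA polymerase I and rDNA factors, 5 of 13 (38.5%) were called higher at 24 h at either high dose. They were Polr1c and Polr1f, subunits of the polymerase, Taf1d, a subunit of its selectivity factor, Nolc1, a nucleolar phosphoprotein that binds snoRNPs, and Ddx21, an RNA helicase. Taf1d was higher by 1.39 ± 0.19 (SE, adjusted p = 1.53e-06) in high against low dose at 24 h, and above its control in 6 of 6 high-dose rats. At 48 h 3 and 2 of the 13 were called higher, at 1500 and 2000 mg/kg, and the second share, 15.4%, was near the 12.8% of all features.

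Of 32 small-subunit assembly factors, the group of Tsr1, 12 and 15 were called higher at 24 h and 7 and 8 at 48 h, at 1500 and 2000 mg/kg. The shares were 37.5% and 46.9% at 24 h, beside 7.14% and 10.3% of all features. At 48 h they were 21.9% and 25%, beside 13.3% and 12.8%. Wdr46 was called lower at 2000 mg/kg and 48 h. Utp4, a component of the early 40S precursor, was higher by 1.24 ± 0.21 at 24 h (SE, adjusted p = 4.12e-05) and by 0.98 ± 0.21 at 48 h (adjusted p = 0.000468), each in 6 of 6 high-dose rats, though 1 low-dose rat at 24 h reached 1.5. Mphosph10 and Rcl1, both known from yeast as parts of early 40S assembly, and Wdr75 rose already at 6 h, by 0.67, 0.84 and 0.64 (adjusted p = 4.08e-05, 3.71e-06 and 0.000103), in 6 of 6 high-dose rats. Mphosph10 was no longer called with all arrays scaled to equal spread (0.47), nor Wdr75 with 50 mg/kg alone as the low dose (0.51). Rcl1 was no longer above the control in any of the 6 at 48 h, when they ran from -0.32 to -0.03. Its low-dose rats ran from -0.16 to 0.06 at that time.

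Of 41 large-subunit assembly factors, the group of Nip7, 23 and 19 were called higher at 24 h and 19 and 19 at 48 h. The shares were 56.1% and 46.3% at 24 h, beside 7.14% and 10.3% of all features. At 48 h they were 46.3% and 46.3%, beside 13.3% and 12.8%. Called lower were 1 and 1 at 24 h and 2 and 1 at 48 h. At 24 h Ebna1bp2 was higher by 1.58 ± 0.13 (SE, adjusted p = 4.42e-10), Tma16 by 1.48 ± 0.13 (7.53e-10), Zfp593 by 1.46 ± 0.11 (1.44e-10) and Rpf2 by 1.40 ± 0.12 (8.73e-10), each above its control in 6 of 6 high-dose rats. Rpf2 belongs with the 5S ribosomal RNA in the 60S precursor, and Ebna1bp2 and Tma16 act in the same subunit, as known from yeast. At 6 h the genes of this list that rose most were Rsl24d1, by 0.92 ± 0.18 (SE, adjusted p = 0.00028), Dnajc21, by 0.82 ± 0.15 (0.000159), and Sbds, by 0.76 ± 0.17 (0.0014), each in 6 of 6. The rats at 1500 mg/kg and 6 h differed widely, with means of 0.84 ± 0.98 (SD between rats) for Rsl24d1, 0.72 ± 0.67 for Dnajc21 and 0.69 ± 0.55 for Sbds. At 2000 mg/kg these SD were 0.138, 0.208 and 0.225. Dnajc21 was higher by 1.04 at 24 h too (adjusted p = 4.83e-06). The 6 h call of Sbds was lost when each dose-time group was treated as a random block. Sbds, which helps to release a factor that keeps the 60S subunit inactive, was not called in high against low dose at 24 h (-0.03, adjusted p = 0.928), nor at 48 h (-0.14, adjusted p = 0.565), when its low-dose rats had a median of 1.01. Against its control Sbds was called higher at 48 h in every dose group. The means were 1.072, 1.092, 0.804 and 1.083, from the lowest to the highest dose. At 24 h only 50 mg/kg was called (0.817), while 1500 and 2000 mg/kg had 0.522 and 0.135.

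Surf6, a nucleolar protein of 60S assembly, ran against its list. At 6 h it was higher by 0.61 ± 0.19 (SE, adjusted p = 0.0161) in high against low dose, above the control in 6 of 6. The low-dose means at 6 h differed, at -0.42 for 50 mg/kg and 0.27 for 150 mg/kg. The means at 1500 and 2000 mg/kg were 0.48 and 0.58, and no group of that time was called against its control. At 24 h Surf6 was lower in high against low dose, with a change of -0.73 ± 0.19 (adjusted p = 0.00386). At 48 h it was lower still, with -1.57 ± 0.19 (adjusted p = 2.43e-07), below the control in 6 of 6 both times. Its high-dose rats ran from -1.90 to -1.21 at 48 h. Against its control at 24 h Surf6 was called lower at 50, 1500 and 2000 mg/kg, with means of -1.08, -0.87 and -1.47. At 150 mg/kg the mean was 0.21. At 24 h the low-dose rats ran from -1.22 to 0.57, and with 50 mg/kg alone as the low dose the difference was -0.09 and no longer called. Its 24 h call was also lost with arrays scaled to equal spread (-0.45) and when each dose-time group was treated as a random block.

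Of 17 nucleases of precursor processing, 6 and 4 were called higher at 24 h and 6 and 6 at 48 h. The shares were 35.3% and 23.5% at 24 h, beside 7.14% and 10.3% of all features. At 48 h they were 35.3% and 35.3%, beside 13.3% and 12.8%. At 6 h limma called 0 of the 17, while 7 and 9 had an unadjusted p below 0.05. Pop7, a subunit of RNase MRP and RNase P, was higher by 1.07 at 24 h and 1.09 at 48 h, and Mphosph6, a cofactor of the exosome, by 1.00 and 1.14 (adjusted p from 9.48e-08 to 4.18e-05). Ran, the GTPase that drives nuclear export, was higher by 1.77 ± 0.16 at 24 h (SE, adjusted p = 2.45e-09) and 1.71 ± 0.16 at 48 h (adjusted p = 3.94e-09), in 6 of 6 high-dose rats, and its 6 values at 6 h lay between -0.31 and -0.04. Nxt1, a cofactor of export, was higher by 1.22 and 1.00 (adjusted p = 1.11e-09 and 2.74e-08). Xpo1, the exportin that carries both subunits, was higher at 48 h by 1.79 ± 0.19 (adjusted p = 3.63e-08). At 24 h the doses differed. Xpo1 was at 0.84 at 1500 mg/kg (adjusted p = 0.00102) and at -0.15 at 2000 mg/kg (adjusted p = 0.62, 2 rats with a value), a difference of -0.99 (adjusted p = 0.0291). At 48 h it was at 0.92 and 2.43, and the difference of 1.51 had the opposite sign (adjusted p = 0.000828).

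In high against low dose, 9, 48 and 24 of the 115 were called higher and 1, 2 and 2 lower at 6, 24 and 48 h, with medians of 0.18, 0.45 and 0.20. The shares higher were 7.83%, 41.7% and 20.9%, beside 4.67%, 6.56% and 8.26% of all features. The shares lower were 0.87%, 1.74% and 1.74%, beside 3.46%, 3.37% and 4.09%. With arrays scaled to equal spread 5 and 7 were called higher at 6 and 48 h. The count of 9 was 14 without rat 3030 and 15 with 150 mg/kg alone as the low dose, and the gene called lower at 6 h, Ccdc86, was not called without rat 3032. From 6 to 24 h at the high doses 34 were called higher and 2 lower (median 0.29), and from 24 to 48 h 4 higher and 10 lower (median -0.17). The shares were 29.6% and 1.74% in the first interval, beside 5.77% and 4.37% of all features. In the second they were 3.48% and 8.7%, beside 5.72% and 3.36%. With arrays scaled to equal spread the 34 were 16, the 10 were 1 and the 4 were 1. Of the 4, 1 was left without rat 3119 and 2 without rat 3007 or rat 3020. Between the high doses 3 were called higher and 4 lower at 2000 than at 1500 mg/kg at 24 h. These shares, 2.61% and 3.48%, were near the 2.5% and 2.68% of all features. The 7 were 4 without rat 3020 or rat 3107 and 1 with arrays scaled to equal spread. At 48 h the same contrast gave 1 higher and 2 lower, or 1 in all with that scaling. The shares at 48 h, 0.87% and 1.74%, were below the 2.08% and 3.32% of all features. At 6 h the contrast gave 0 by limma, while 19 of 115 had an unadjusted p below 0.05. It gave 1 with arrays as observations, 2 without rat 3030 and 3 without rat 3031 or rat 3032.

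Ribosomal proteins, the products that these factors assemble, were measured for 50 genes of the cytosolic ribosome. At 24 h 44 and 42 were called higher at 1500 and 2000 mg/kg, with medians of 0.82 and 0.89, and at 48 h 45 and 41, with medians of 1.21 and 0.96. The shares were 88% and 84% at 24 h, beside 7.14% and 10.3% of all features. At 48 h they were 90% and 82%, beside 13.3% and 12.8%. With arrays scaled to equal spread the 24 h counts were 25 and 25. At 6 h limma called 0 of 50 at either high dose, while 1 and 25 had an unadjusted p below 0.05. Of the genes chosen by their ratios, Tsr1 was called at both doses at that time and Nip7 at 2000 mg/kg alone. Nop58, Nop56 and Npm1 were called at neither dose. These calls are a description that the choice of the genes partly fixes, and no order in time is drawn from them. Rpl6 was higher by 1.23 ± 0.11 (SE, adjusted p = 9.3e-10), Rpl10a by 1.22 ± 0.11 (2.61e-09) and Rps6 by 1.2 ± 0.10 (8.63e-10) in high against low dose at 24 h. At 48 h the largest rises were those of Rps24 (1.49), Rps12 (1.48) and Rpl13 (1.46), with adjusted p of at most 4.52e-10. All of these were above the control in 6 of 6 high-dose rats. From 24 to 48 h limma called 0 of 50, while 22 had an unadjusted p below 0.05, and the median was 0.16. Nop58, Nop56, Npm1 and Tsr1 were lower by 0.61 to 0.79 in that interval, but Nip7 changed by only -0.08. The difference between the 2 kinds of gene was not tested.

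**Figure D4:**
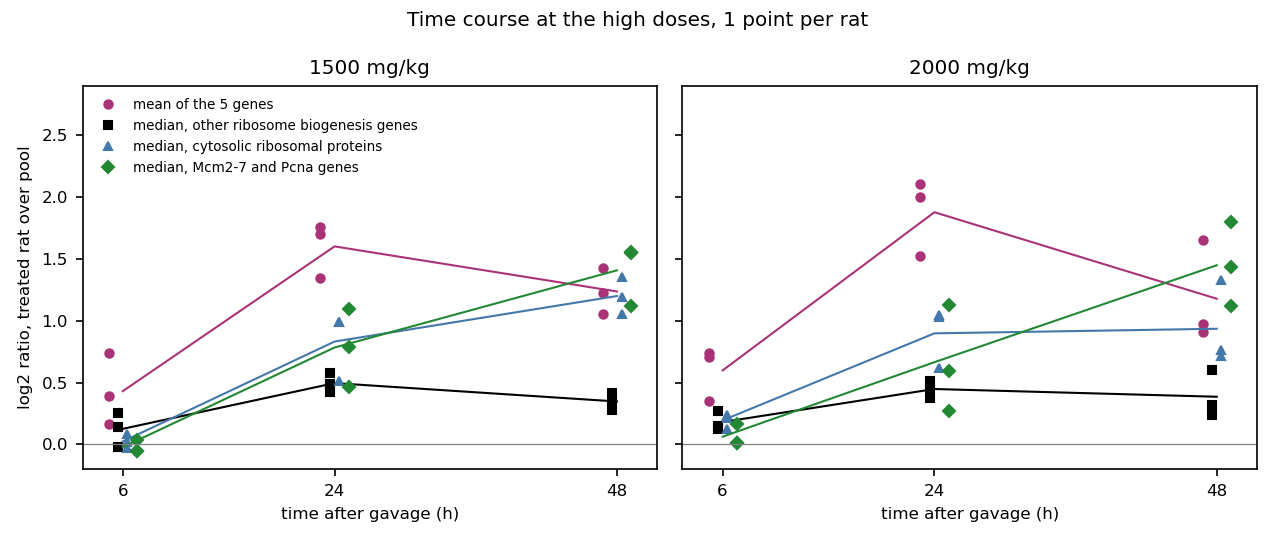
Log2 ratio of treated rat over control (vertical axis) against time in hours (horizontal axis) at 1500 mg/kg (left) and 2000 mg/kg (right), with 1 point per rat for the mean of the 5 genes and for the medians of 3 gene lists, and lines through the group means. At 24 h the mean of the 5 genes lies between 1.35 and 2.11 in the 6 rats (1 of them with 4 genes), and from 24 to 48 h it is lower while the median of the Mcm2-7 and Pcna genes is higher, up to 1.80.

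The replicative helicase subunits Mcm2 to Mcm7 and the clamp protein Pcna, which act in DNA replication, were called higher in 5 of 7 at 24 h and 6 of 7 at 48 h at both high doses, with medians of 0.78 and 0.64 and then 1.45 and 1.45. The shares were 71.4% at 24 h, beside 7.14% and 10.3% of all features, and 85.7% at 48 h, beside 13.3% and 12.8%. Mcm5 was higher by 1.91 ± 0.26 (SE, adjusted p = 2.06e-06) at 24 h and 3.5 ± 0.26 (adjusted p = 7.17e-11) at 48 h in high against low dose. Mcm4 was higher by 1.25 and 2.51 (adjusted p = 2.36e-05 and 2.41e-10), Pcna by 0.80 at 24 h (adjusted p = 4.46e-05) and Mcm6 by 1.41 at 48 h (adjusted p = 2.93e-09), and each of these was above its control in 6 of 6 high-dose rats. The Pcna call was lost with arrays scaled to equal spread (0.52). At 6 h limma called 0 of 7, while 2 and 1 had an unadjusted p below 0.05.

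Of 44 mitochondrial ribosomal proteins 9 and 11 were called higher at 24 h and 20 and 13 at 48 h. The shares were 20.5% and 25% at 24 h, beside 7.14% and 10.3% of all features. At 48 h they were 45.5% and 29.5%, beside 13.3% and 12.8%. At 2000 mg/kg and 24 h 1 was called lower. Mrpl47 was higher already at 6 h, by 0.96 (adjusted p = 4.64e-06), and by 0.94 at 24 h (adjusted p = 7e-06). Mrps18b and Mrpl12 were higher by 1.06 and 1.00 at 24 h (adjusted p = 1.5e-09 and 4.46e-07), and Mrps22, Mrpl50 and Mrpl13 by 0.85, 0.79 and 0.76 at 48 h (adjusted p of at most 2.4e-06). With arrays scaled to equal spread the calls of these 3 were lost (0.39 to 0.58), as was that of Mrpl47 at 24 h (0.58). Of 15 cytosolic aminoacyl-tRNA synthetases, which charge the amino acids used in translation, 6 and 3 were called higher at 24 h and 1 and 4 at 48 h, where the 6.67% at 1500 mg/kg is below the 13.3% of all features. The other shares were 40% and 20% at 24 h, beside 7.14% and 10.3%, and 26.7% at 2000 mg/kg and 48 h, beside 12.8%. Yars1, Sars1 and Iars1 were higher by 1.31, 1.01 and 0.94 at 24 h in high against low dose (adjusted p of at most 4.08e-10), in 6 of 6 rats each.

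Myc itself had log2 ratios between 0.42 and 1.47 in the 6 high-dose rats at 24 h, with means of 0.79 ± 0.25 (SD, n = 3) at 1500 mg/kg and 1.10 ± 0.59 (SD, n = 3) at 2000 mg/kg. It was higher by 1.08 ± 0.20 (SE, adjusted p = 9.04e-05) in high against low dose, in 6 of 6 rats. At 48 h the difference was 0.66 ± 0.20 (adjusted p = 0.00791), with 5 of 6 high-dose rats above the control. That call was lost without rat 3117 (0.58), rat 3118 (0.55) or rat 3149 (0.56), with arrays scaled to equal spread (0.56) and when each dose-time group was treated as a random block. At 6 h the 6 rats ran from -0.30 to 0.69 and it was not called (adjusted p = 0.928). Of the other 7 genes listed with Myc that were measured, Mybbp1a, a nucleolar protein that binds Myb, was higher by 0.87 at 24 h (adjusted p = 0.000314) and 0.73 at 48 h (adjusted p = 0.0015). The second of these calls was lost without rat 3119 (0.57), with arrays scaled to equal spread (0.47) and with 50 mg/kg alone as the low dose (0.56). Mxi1, an antagonist of Myc, was higher by 0.68 at 48 h (adjusted p = 0.00483), a call lost without rat 3059, 3119 or 3151 (0.52 to 0.58) and under 4 of the other settings tried. Its mean at 48 h was 1.51 at 2000 mg/kg but 0.314 at 1500 mg/kg, beside 0.313 at 50 mg/kg. Of the 8 listed genes with Myc, 2 and 3 were called higher at 2000 mg/kg at 24 and 48 h (25% and 37.5%, beside 10.3% and 12.8% of all features). At each of these times 1 was called lower (12.5%, beside 4.43% and 9.17%).

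Over the 36 rats, the 10 genes whose ratios were most alike to the mean of the 5 were Gtf2h1 (Pearson r = 0.976), Eef1e1 (0.959), Eif2s2 (0.959), Nsa2 (0.959), Emc6 (0.959), Hgh1 (0.958), Cnot10 (0.958), Eif4a1 (0.956), Nolc1 (0.955) and Trmt6 (0.954). Within the 18 high-dose rats these correlations were from 0.92 to 0.988, the highest for Eif2s2. Nsa2, a 60S assembly factor, and Nolc1 are among the 115 listed genes. Eif4a1 and Eif2s2 are initiation factors of translation, Trmt6 is part of a tRNA methyltransferase, and Gtf2h1 is a subunit of the general transcription factor TFIIH. In high against low dose at 24 h Gtf2h1 was higher by 1.46, Eef1e1 by 1.45, Trmt6 by 1.33, Eif4a1 by 1.29 and Eif2s2 by 1.11. The rats share controls and fall into dose clusters, so these values describe likeness of pattern and were not tested.

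Some markers of liver cell types were called in the same groups. Of all features 7.14% and 10.3% were called higher there at 24 h, and 13.3% and 12.8% at 48 h. Called lower were 2.75% and 4.43%, then 5.42% and 9.17%. The 7 measured hepatocyte markers had medians of -0.18 and -0.46 at 24 h and -0.38 and -0.61 at 48 h, at 1500 and 2000 mg/kg, with 2, 2, 2 and 2 called higher and 0, 2, 2 and 4 called lower. Over single rats their median lay between -0.58 and -0.19 at 24 h, between -0.63 and 0.09 at 48 h, and between -0.15 and 0.18 at 6 h. Stellate cell and fibroblast markers had 4 and 3 of 6 called higher at 48 h, with medians of 0.65 and 0.57, and 0 and 1 of 6 at 24 h, with medians of -0.37 and -0.34. Neutrophil markers had 2 and 1 of 4 called higher at 24 h and 3 and 1 at 48 h. Macrophage and monocyte markers had 0 and 1 of 8 at 24 h and 2 and 2 of 8 at 48 h, and endothelial markers 0 and 1 of 6, then 2 and 1. Others were called lower, namely 1 and 1 macrophage and monocyte markers at 24 h and 1 at 2000 mg/kg and 48 h, 2 stellate cell and 1 endothelial marker at 1500 mg/kg and 24 h, and 1 and 1 T, B and NK cell markers at 48 h. The single macrophage and monocyte marker called higher at 2000 mg/kg and 24 h, 12.5% of its list, was near the 10.3% of all features. The single endothelial marker called higher at that dose and 48 h, 16.7%, was near the 12.8%. Of 4 bile duct markers and 8 T, B and NK cell markers limma called 0 higher in these 4 groups, while 0 to 3 and 2 to 4 of them had an unadjusted p below 0.05. The part of a change in cell types in the ratios of the 5 genes was not tested.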

How the data were processed

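Hepatic RNA of 36 rats was measured on 72 two-colour Agilent arrays of 20500 probes, of which 12750 carried 1 gene symbol. The authors deposited log10 ratios, made with Agilent Feature Extraction software per the labels' protocols; the sources used here do not give the software version, normalization and direction. Column medians lay between -0.0191 and 0.019, 0.211% of values were missing, and signal intensities were not used here. Ratios were converted to log2, turned by dye and averaged per rat over its pair of arrays, with a value needed on each. Probes of a symbol were averaged, and features needed values in 2 rats of every group (17299 of 17403). limma 3.58.1 (R 4.3.3) fitted the 12 group means, two-sided, checked on simulated data. Called means a Benjamini-Hochberg adjusted p below 0.05 and at least 1.5-fold, and contrasts used the same fit. The labels give separate animals. Groups share no replicate numbers. The number of arrays limits the precision.

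The 5 genes and all lists were chosen with earlier results of these data known. Genes outside the 5 were named by rule: for each time, of the listed genes called in high against low dose with the sign of the change in all 6 high-dose rats, up to 6 largest rises and 4 falls, up to 3 genes of each comparison list, and the 10 most alike. Genes named within small counts, the values of Znhit6 at 24 h and of Surf6 at 6 h were chosen after their values were seen. Entrez identifiers of 12720 probes were in the current rat table (GRCr8). Alternatives were another scaling, centring, single dye orientations, other models, no fold minimum, complete values, single low doses and leaving out each rat.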

Additional observations from a re-analysis of the deposited data

Results flagged for a closer look

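Nip7 at 150 mg/kg lay below its control in every rat at 6 h (mean -0.36) and at 24 h (-0.28) and above it in every rat at 48 h (0.58). Tsr1 at that dose lay below in every rat at 24 h (-0.27) and above in every rat at 48 h (0.50). These opposite signs between times were not tested, since the genes were chosen by these ratios.

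Other named genes differed between times at the high doses by the limma contrast. From 6 to 24 h Ran was higher by 1.71, Ebna1bp2 by 1.59, Rpf2 by 1.46, Tma16 by 1.36, Utp4 by 1.35, Zfp593 by 1.17, Taf1d by 1.12, Nxt1 by 1.03, Pop7 by 0.78, Xpo1 by 0.72 and Mphosph6 by 0.62. The change for Surf6 was -1.70 and for Znhit6 -0.91. From 24 to 48 h Xpo1 was higher by 1.33 and Sbds by 0.61, while the change was -0.80 for Rcl1, -0.68 for Zfp593, -0.65 for Dnajc21 and -0.59 for Rpf2. Each time has its own controls, so a difference between controls enters these values, and its part was not tested. Groups of 3 rats were too small for a search for single outlying rats.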

How the results depend on the processing

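No called result changed direction under the alternatives run, and the calls of named genes held in 355 fits with another setting and were lost in 19, and held in 565 that left out a rat and were lost in 7. Of the counts of the 115 listed genes, scaling all arrays to equal spread lowered those called higher to 2 and 9 at 1500 and 2000 mg/kg and 6 h, 18 at 1500 mg/kg and 48 h, 5 and 7 in high against low dose at 6 and 48 h and 16 from 6 to 24 h, left 1 called lower from 24 to 48 h, and left 1 and 1 called between the high doses at 24 and 48 h. It also lowered the cytosolic ribosomal proteins called at 24 h to 25 at each high dose. Without a fold minimum the counts called higher were 29 and 39 at 6 h, 77 at 1500 mg/kg and 24 h, 65 and 67 at 48 h, 37 and 53 in high against low dose at 6 and 48 h and 60 from 6 to 24 h, with 39 lower from 24 to 48 h, and 15 and 7 between the high doses at 24 and 48 h. With 150 mg/kg alone as the low dose 15 were higher at 6 h, and with arrays as observations 1 gene differed between the high doses at 6 h. Leaving out each rat gave 2 to 14 and 15 to 20 at 6 h, 49 to 53 and 43 to 49 at 24 h, 36 to 41 and 29 to 48 at 48 h (1500 and 2000 mg/kg). It gave 8 to 14, 44 to 52 and 18 to 27 in high against low dose at 6, 24 and 48 h, 30 to 37 from 6 to 24 h, 8 to 14 lower from 24 to 48 h, and 0 to 3, 4 to 9 and 2 to 3 between the high doses. Scaling ended the calls of Mphosph10 (0.47) at 6 h, Surf6 (-0.45), Mrpl47 (0.58) and Pcna (0.52) at 24 h, and Myc, Mybbp1a, Mxi1, Mrps22, Mrpl50 and Mrpl13 (0.39 to 0.58) at 48 h. With 50 mg/kg as the low dose those of Wdr75 (0.51), Surf6, Mybbp1a and Mxi1 ended, with arrays as observations that of Mxi1, and with the group as a random block those of Sbds, Surf6, Mxi1 and Myc. The causes were not tested. Of the means of the 5 genes 53 moved by more than their SD, of which 21 by scaling (Nop58 at 24 h to 1.31 and 1.63) and 31 with 1 dye orientation. The remaining 1 came from an alternative chosen after seeing the data, in which the 1 array of rat 3105 gives Npm1 a mean of 2.01 and a difference of 0.38 between the high doses, which ended that call. No paired analysis was possible because the groups share no replicate numbers. Single probes were not run, since each of the 5 had 1 probe. Signal over background was not used here.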
